A study of Mus musculus with 4 samples.

Results

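The genes described here encode protein subunits of the mitochondrial ribosome (mitoribosome), and they were chosen by name: every protein-coding row of the deposited expression table whose symbol begins with Mrpl or Mrps followed by a digit. There were 78 such genes among the 50600 rows, 49 with a large-subunit symbol (Mrpl) and 29 with a small-subunit symbol (Mrps). The naming rule itself uses no measured value. RNA sequencing had been done on Py8119, a mesenchymal-like mouse mammary tumour cell line from the C57BL/6 mammary gland, in a study of the scaffold protein gene Mtss1. The overexpression group was 2 libraries of Py8119 cells overexpressing Mtss1, and the control group was 2 libraries of Py8119 cells with the genotype control and the title hygro. All 4 were grown in IMDM with 10% fetal bovine serum and no treatment, and total RNA was sequenced. The labels do not state whether replicate libraries were grown as separate cultures or whether either population was a clone or a pool. The p-values therefore weigh the difference between groups only against the spread of replicate libraries in this study, and that spread may be technical. For each gene it was drawn largely from genes of similar level, not from that gene alone.

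Mitochondria translate the few mRNAs of their own genome, which encode core subunits of the respiratory chain and the ATP synthase, on a ribosome separate from that of the cytosol. Its rRNAs come from the mitochondrial genome, whereas all of its proteins are encoded in the nucleus and imported, so building it draws on both genomes. The small subunit binds and decodes the mRNA, and the large subunit forms the peptide bond and releases the chain toward the inner membrane. Proteins with a bacterial counterpart form an inherited set, and the mammalian particle carries many further proteins that bacteria lack.

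Values were CPM, reads scaled to a library of 1000000, with 15594209 and 16656638 recovered reads in overexpression libraries 1 and 2, against 20617788 and 22081639 in control libraries 1 and 2. Mtss1 itself had 118 and 119 CPM in overexpression libraries 1 and 2, against 54.5 and 50.5 CPM in control libraries 1 and 2 (log2 fold change 1.16 ± 0.05, limma adjusted p = 4.8e-15), which goes with the labels. All 8 mesenchymal markers examined were expressed, and 3 of them rose (Prrx1 by 1.03, Twist1 by 0.51 and Zeb1 by 0.17 on the log2 scale), 4 fell (S100a4 by 1.51, Zeb2 by 0.42, Fn1 by 0.30 and Cdh2 by 0.22), and vimentin (Vim) did not pass, at 4060 to 4200 CPM in overexpression and 4010 to 4300 CPM in control libraries. The epithelial genes Epcam and Krt5 were listed at 0 in every library, Cdh1, Krt14 and Cldn4 did not exceed 0.119 CPM, and Krt8 and Krt18 fell by 0.67 and 0.28 (limma adjusted p of 2.9e-07 or lower for both), to 367 and 368 CPM and to 234 and 235 CPM in overexpression libraries, against 562 and 608 CPM and 286 and 285 CPM in control libraries. Whether these differences bear on the members was not tested. No immune or endothelial marker exceeded 0.882 CPM except Cd68, a lysosomal protein gene, at 91.9 and 92.4 CPM in overexpression and 19.8 and 17.4 CPM in control libraries. The transcriptomes differed widely: of 12510 genes that reached 1 CPM in 2 or more libraries, limma with Benjamini-Hochberg adjustment called 8273 at an adjusted p under 0.05. In bulk RNA, fewer cells of a type and less RNA per cell cannot be told apart.

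Upstream sequence is shown for the members with the largest called rise and fall in each subunit, and for Mrpl44, the member with the second largest fall, because NRF1, the ETS factor NRF2 and YY1 are known regulators of nuclear genes for mitochondrial proteins. Each line is a RefSeq window of GRCm38.p6 (mm10), 250 bases before to 50 after the RefSeq start, 5′ to 3′ on the strand of the gene. Capitals mark matches, on either strand, to the motif letters of NRF1 (GCGC, any base, then TGCGC), of ETS factors (CCGGAAG) or of YY1 (AAGATGGC). The windows are chr16:84735195-84735494 on the minus strand for Mrpl39, chr4:155802628-155802927 on the plus strand for Mrpl20, chr1:79775768-79776067 on the plus strand for Mrpl44, chr14:20393441-20393740 on the minus strand for Mrps16 and chr2:28467816-28468115 on the plus strand for Mrps2.
Mrpl39: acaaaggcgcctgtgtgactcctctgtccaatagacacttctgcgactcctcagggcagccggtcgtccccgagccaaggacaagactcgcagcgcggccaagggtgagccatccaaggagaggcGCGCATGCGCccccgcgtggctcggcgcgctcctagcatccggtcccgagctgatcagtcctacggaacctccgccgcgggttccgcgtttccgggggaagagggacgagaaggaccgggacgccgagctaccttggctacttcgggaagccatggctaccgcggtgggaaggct
Mrpl20: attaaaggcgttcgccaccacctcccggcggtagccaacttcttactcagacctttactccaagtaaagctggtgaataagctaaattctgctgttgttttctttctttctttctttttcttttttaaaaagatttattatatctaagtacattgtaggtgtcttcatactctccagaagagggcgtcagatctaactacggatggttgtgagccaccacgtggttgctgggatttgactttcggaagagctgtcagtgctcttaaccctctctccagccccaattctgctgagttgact
Mrpl44: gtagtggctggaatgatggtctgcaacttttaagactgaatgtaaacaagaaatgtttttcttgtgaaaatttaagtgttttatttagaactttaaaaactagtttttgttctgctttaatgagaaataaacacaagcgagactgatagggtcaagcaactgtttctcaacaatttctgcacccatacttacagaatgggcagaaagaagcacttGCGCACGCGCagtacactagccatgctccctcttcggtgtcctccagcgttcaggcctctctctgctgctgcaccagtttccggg
Mrps16: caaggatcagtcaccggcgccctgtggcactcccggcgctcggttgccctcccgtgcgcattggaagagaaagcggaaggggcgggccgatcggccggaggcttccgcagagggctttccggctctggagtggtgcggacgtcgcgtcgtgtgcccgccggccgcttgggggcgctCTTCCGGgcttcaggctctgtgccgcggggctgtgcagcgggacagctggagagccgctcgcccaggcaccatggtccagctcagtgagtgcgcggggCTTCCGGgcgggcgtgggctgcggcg
Mrps2: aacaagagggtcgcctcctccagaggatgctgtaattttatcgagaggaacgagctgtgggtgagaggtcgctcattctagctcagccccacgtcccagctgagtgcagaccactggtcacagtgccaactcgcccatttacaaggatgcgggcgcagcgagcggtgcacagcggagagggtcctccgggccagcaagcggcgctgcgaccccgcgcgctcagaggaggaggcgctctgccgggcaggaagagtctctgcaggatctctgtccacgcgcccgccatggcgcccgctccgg
The capitals are 1 NRF1 match in Mrpl39 and 1 in Mrpl44, which moved in opposite directions, and 2 ETS matches in Mrps16, whose other RefSeq window holds no match. The windows of Mrpl20 and Mrps2 hold none of these letters.

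Mitoribosomal protein genes as a set stayed close to their control level. All 78 were expressed and tested, with at least 9.2 CPM in every library. Their summed level was 2806 and 2796 CPM in overexpression libraries 1 and 2, against 2847 and 2838 CPM in control libraries 1 and 2. That is 2801 ± 6.73 CPM in overexpression and 2843 ± 5.95 CPM in control cells (SD, n = 2 each), a ratio of 0.985, so the groups did not overlap but lay close together. As a share of its library the overexpression sum was not lower: it made up 0.285% and 0.282% of the overexpression libraries, against 0.282% and 0.279% of the control libraries. The median log2 fold change of the members was -0.02, against -0.01 over all genes tested.

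Single members nevertheless moved in both directions. Of the 78, 37 passed the test (47.4%), where 66.1% of all genes tested did. The 16 that rose made up 20.5% of the members, against 31.9% of all genes, and the 21 that fell made up 26.9%, against 34.2% of all genes. The 2 groups did not overlap for 55 members (70.5%), against 81.6% of all genes. Called members were thus no larger a share than called genes at large. Their changes were also small: the median absolute log2 fold change was 0.16, against 0.28 over all genes. Only Mrpl20, Mrpl44 and Mrps2 changed by 0.5 or more (3.85% of the members, against 27.2% of all genes), and no member reached 1 (against 8.27% of all genes). The range was -0.74 to 0.39, and the middle of the members lay between -0.19 and 0.12 by quartiles, where all genes lay between -0.29 and 0.27. With any 1 library left out, fewer members rose and fewer fell, and fewer genes were called over the whole table as well. In each of these fits the members lost a larger share of their calls than all genes did. How many calls over the whole table held in every such fit was not counted, so the members that held have no background share. Of the 37 calls, 16 held whichever library was left out: Mrpl39, Mrpl24, Mrpl28, Mrpl30, Mrpl16, Mrps10 and Mrps30 among those that rose, and Mrpl20, Mrpl44, Mrpl21, Mrpl50, Mrpl3, Mrpl13, Mrps2, Mrps6 and Mrps35 among those that fell.

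**Figure D1:**
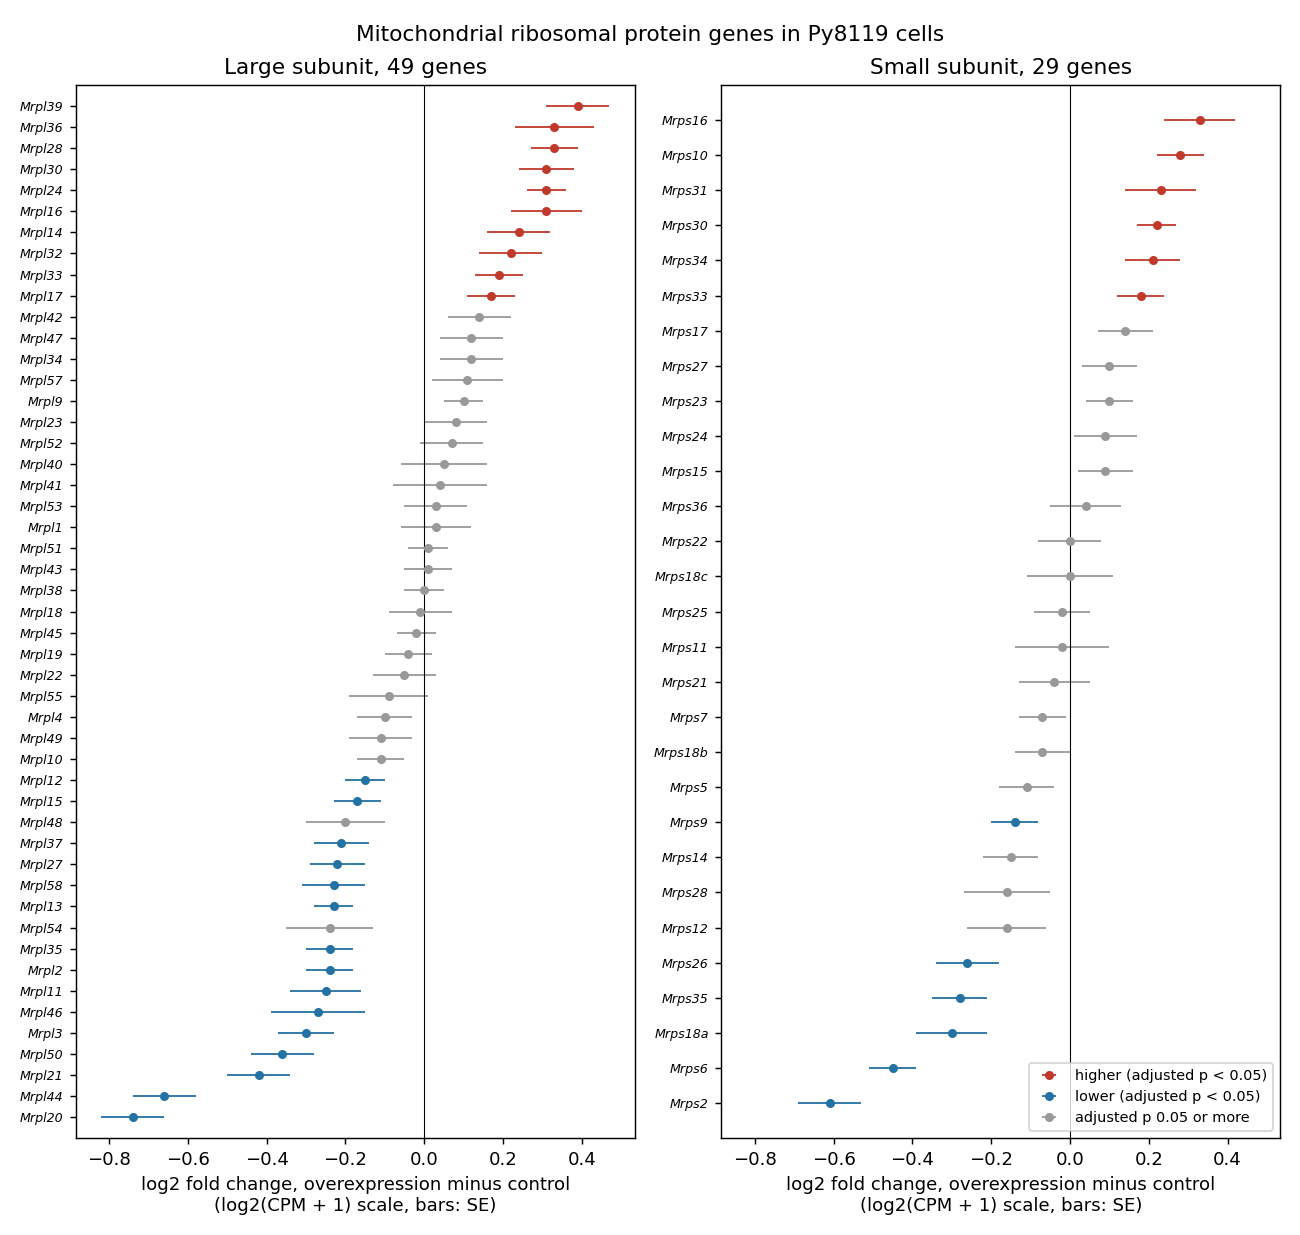
Fitted log2 fold change of each of the 78 members, overexpression minus control on the log2(CPM + 1) scale, with bars of 1 SE, for the large subunit (left) and the small subunit (right). Red and blue points passed the limma test upward (16) and downward (21), grey points (41) did not, and the range runs from -0.74 for Mrpl20 to 0.39 for Mrpl39.

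Large-subunit and small-subunit genes had nearly the same median change. Of 49 large-subunit genes, 10 rose (20.4%) and 15 fell (30.6%), while 24 missed the threshold, and the median log2 fold change was -0.01. Of 29 small-subunit genes, 6 rose and 6 fell (20.7% each), while 17 missed it, and the median was -0.02. Over all genes tested 31.9% rose and 34.2% fell. When the columns were scaled to the same total the medians turned to 0.0215 for the large and 0.0212 for the small subunit, with 0.023 for all genes. The large-subunit sum was 1843 and 1843 CPM in overexpression libraries 1 and 2, against 1884 and 1864 CPM in control libraries 1 and 2. The small-subunit sum was 963 and 953 CPM in overexpression libraries 1 and 2, against 963 and 975 CPM in control libraries 1 and 2. The ratio of the large to the small sum was therefore 1.91 and 1.93 in overexpression libraries, against 1.96 and 1.91 in control libraries, so the groups overlapped. Per gene the ratio was 1.13 and 1.14 in overexpression libraries, against 1.16 and 1.13 in control libraries. The medians of the subunits differed by 0.000917 (large minus small), and the sign of that difference turned when control library 2 (-0.0729), overexpression library 1 (-0.0486) or overexpression library 2 (-0.0122) was left out, with 0.0661 without control library 1. With any 1 library left out, fewer members of the large and fewer of the small subunit were called. Symbols do not always give the place of the protein: Mrps18a and Mrps30 sit in the large subunit of the mammalian particle, and Mrps36 belongs to the alpha-ketoglutarate dehydrogenase complex. With these 3 placed accordingly, the large subunit had 27 called members and the small subunit 10.

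Transcript levels differed far more between members than between groups. Per kb of transcript, on the CPM scale, Mrpl48 was the lowest at 3.53 in overexpression and 4.08 in control cells, and Mrpl33 the highest at 105 in overexpression and 91.3 in control cells, a span of 29.7-fold in overexpression and 22.4-fold in control cells. The order and the span depend on the length used, here that of the longest principal transcript, although all reads of a gene were counted. For Mrpl33 that length is 478 bases while its annotated exons cover 7326, and for Mrps10 it is 1018 against 8079. In plain CPM the members ran from 9.2 to 99.7 in overexpression library 1. The median member had 21.9 CPM per kb in overexpression and 21.8 CPM per kb in control cells. In overexpression cells Mrpl33 was followed by Mrpl52 at 73.1 CPM per kb, Mrpl24 at 69.7, Mrpl38 at 67.7 and Mrpl13 at 67.5. In control cells it was followed by Mrpl13 at 79.3 CPM per kb, Mrpl12 at 70.5, Mrpl52 at 69.3 and Mrpl38 at 67.7. In the small subunit the highest were Mrps10 (50.0 CPM per kb in overexpression and 41.2 in control cells), Mrps21 (49.6 CPM per kb in overexpression and 51.1 in control cells) and Mrps6 (48.9 CPM per kb in overexpression and 67.1 in control cells). Mrps6 thus stood first among small-subunit genes in control cells and below Mrps10 and Mrps21 in overexpression cells.

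**Figure D2:**
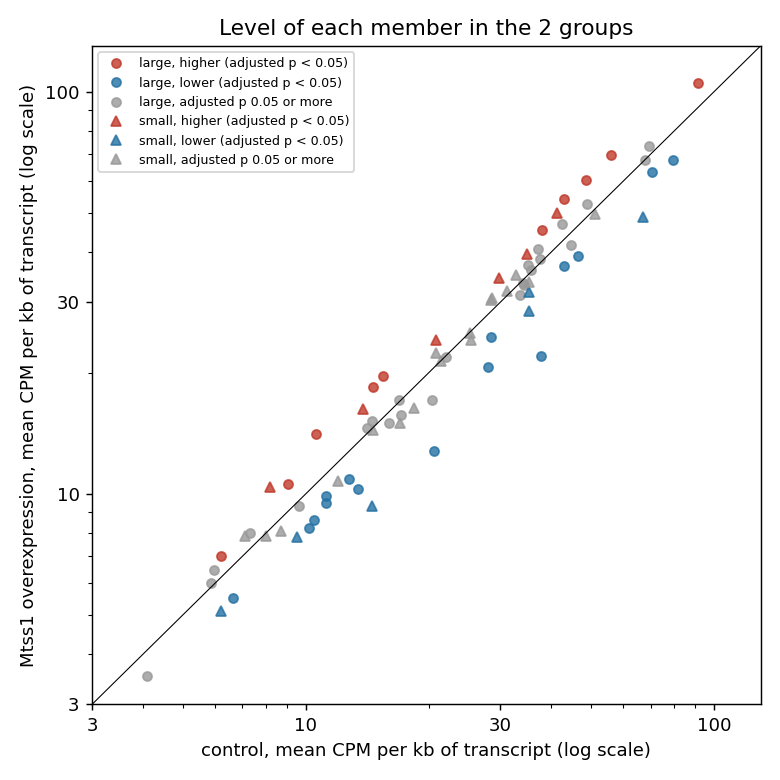
Mean level of each member in overexpression (vertical) against control cells (horizontal), in CPM per kb of transcript on log axes, with circles for the large and triangles for the small subunit. The diagonal marks equal levels; the points follow it from Mrpl48 (3.53 in overexpression, 4.08 in control) to Mrpl33 (105 in overexpression, 91.3 in control), and the blue points lie below and the red points above it.

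Among large-subunit genes the largest falls were larger than the largest rises, -0.74 for Mrpl20 against 0.39 for Mrpl39. Mrpl20 (chromosome 4, 155802878 to 155809975, plus strand, mm10 with the GENCODE M21 annotation), the counterpart of a bacterial protein that binds the large-subunit rRNA early in assembly, had 16.6 and 16.9 CPM in overexpression libraries 1 and 2, against 29.3 and 28.2 CPM in control libraries 1 and 2. Its log2 fold change was -0.74 ± 0.08 (SE; limma adjusted p = 7.3e-08). Both overexpression libraries lay well below both control libraries, and leaving out any 1 library kept the change between -0.77 and -0.72. Mrpl44 (chromosome 1, 79776018 to 79781445, plus strand), a mitochondria-specific subunit with a ribonuclease III-like fold, had 18.3 and 18.1 CPM in overexpression libraries, against 30.9 and 27.8 CPM in control libraries (-0.66 ± 0.08, limma adjusted p = 4.8e-07). It too showed a clear gap between the groups. Mrpl21, a bacterial-type subunit (one with a bacterial counterpart), had 23.8 and 23.2 CPM in overexpression libraries, against 33.1 and 30.5 CPM in control libraries (-0.42 ± 0.08, limma adjusted p = 6.4e-05). Mrpl50, which bacteria lack, had 20.9 and 22.8 CPM in overexpression libraries, against 27.7 and 28.9 CPM in control libraries (-0.36 ± 0.08, limma adjusted p = 0.00055). For both genes the groups did not overlap.

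The catalytic core surrounds the site of peptide bond formation. Of its 4 genes examined, 1 rose (25.0%, against 31.9% of all genes) and 2 fell (50.0%, against 34.2%), counts too small to set the core apart. Mrpl3, a bacterial-type protein of that core, had 31.6 and 33.9 CPM in overexpression libraries, against 40.6 and 40.6 CPM in control libraries (-0.30 ± 0.07, limma adjusted p = 0.00047). Mrpl2, another core protein, fell by 0.24 ± 0.06 on the log2 scale (limma adjusted p = 0.0024), a call lost without control library 2 (adjusted p = 0.071). Mrpl16, which lies beside the incoming tRNA, had 22.0 and 20.7 CPM in overexpression libraries, against 16.6 and 17.5 CPM in control libraries (0.31 ± 0.09, limma adjusted p = 0.0052). Its groups did not overlap and it moved opposite to Mrpl3 and Mrpl2. Mrpl4, the fourth, had overlapping groups (log2 fold change -0.10 ± 0.07) and passed only when overexpression library 1 was left out (adjusted p = 0.045).

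In the stalk that recruits translation factors and its base, 2 of 5 genes fell (40.0%, against 34.2% of all genes) and none rose, with a median log2 fold change of -0.15. Mrpl11, at the base of the stalk, had 16.3 and 17.3 CPM in overexpression libraries, against 20.3 and 20.1 CPM in control libraries (-0.25 ± 0.09, limma adjusted p = 0.019). Its call was lost without control library 1 (adjusted p = 0.072), control library 2 (0.056) or overexpression library 1 (0.094). Mrpl12, the stalk protein that bacteria call L7/L12, fell by 0.15 ± 0.05 (limma adjusted p = 0.0081) and lost its call without control library 1 (0.13) or overexpression library 2 (0.065). In the central protuberance on top of the large subunit 2 of 8 fell (25.0%) and 6 did not pass, with a median of -0.05. Both shares of falls lie near that of all genes, but no gene of either place rose, against 31.9% of all genes. The 25.0% called in the central protuberance stands against 66.1% of all genes. Whether these few genes differ from genes at large was not tested. Mrpl46 had 9.2 and 10.3 CPM in overexpression libraries, against 11.4 and 12.4 CPM in control libraries (-0.27 ± 0.12, limma adjusted p = 0.049). It lies at the threshold, and the call was lost without either control library (adjusted p = 0.056 and 0.24) and without overexpression library 1 (0.23). Its exons share 173 bases with those of the opposite-strand member Mrps11. Mrpl27, the other of the 2, fell by 0.22 ± 0.07 (limma adjusted p = 0.012), a call lost without control library 1 (0.077) or overexpression library 2 (0.05). In the L1 stalk, which guides the departing tRNA, Mrpl1 did not pass (0.03 ± 0.09).

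Of 6 genes of the polypeptide exit tunnel 2 rose (33.3%, against 31.9% of all genes) and 4 did not pass, with a median of 0.10, a share near that of all genes. Mrpl24, at the tunnel exit, had 92.1 and 94.6 CPM in overexpression libraries, against 77.6 and 72.7 CPM in control libraries (0.31 ± 0.05, limma adjusted p = 8.5e-06). Its groups were well apart, although 26.3% of its exonic bases overlap the opposite-strand gene Rrnad1 (log2 fold change 0.26). Mrpl17, also near the tunnel, rose by 0.17 ± 0.06 (limma adjusted p = 0.017) and lost its call without control library 1 (0.18) or overexpression library 2 (0.11).

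The other rises of the large subunit were spread over the particle. Mrpl39 (chromosome 16, 84717576 to 84735742, minus strand), a mitochondria-specific subunit with a region related to threonyl-tRNA synthetase, had 31.8 and 32.7 CPM in overexpression libraries, against 24.2 and 24.4 CPM in control libraries. Its log2 fold change of 0.39 ± 0.08 was the highest of all 78 members (limma adjusted p = 8.7e-05). The libraries of each group lay within 1 CPM of each other and the groups did not overlap. Mrpl28, of bacterial type, had 59.9 and 55.6 CPM in overexpression libraries, against 44.5 and 47.3 CPM in control libraries (0.33 ± 0.06, limma adjusted p = 5.9e-05). Mrpl30 had 57.0 and 60.2 CPM in overexpression libraries, against 43.0 and 51.2 CPM in control libraries (0.31 ± 0.07, limma adjusted p = 0.00034), with the control libraries further apart than those of Mrpl39 or Mrpl28. Its change was 0.191 without control library 1 and 0.437 without control library 2, and the call held. Mrpl36, a very short bacterial-type protein, had 17.8 and 18.6 CPM in overexpression libraries, against 14.9 and 13.7 CPM in control libraries (0.33 ± 0.10, limma adjusted p = 0.0057), a call lost without control library 2 (adjusted p = 0.055). Mrpl14, at the interface of the subunits, had 29.9 and 28.4 CPM in overexpression libraries, against 25.0 and 24.0 CPM in control libraries (0.24 ± 0.08, limma adjusted p = 0.0089). Its call was lost without control library 2 (0.06) or overexpression library 1 (0.063). Mrpl33, the most abundant member per kb, had 47.6 and 52.6 CPM in overexpression libraries, against 44.7 and 42.6 CPM in control libraries (0.19 ± 0.06, limma adjusted p = 0.011), and lost its call without control library 2 (0.078) or overexpression library 2 (0.15).

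Abundant members could also fall or stay. Mrpl13, a bacterial-type subunit, had 78.5 and 86.5 CPM in overexpression libraries, against 98.7 and 95.4 CPM in control libraries (-0.23 ± 0.05, limma adjusted p = 0.00036), without overlap. Mrpl52 of the central protuberance had 32.6 and 28.6 CPM in overexpression libraries, against 30.2 and 27.8 CPM in control libraries (0.07 ± 0.08, limma adjusted p = 0.44), and these overlapped. The smallest changes of the large subunit were those of Mrpl38, Mrpl43 and Mrpl51. Mrpl38 averaged 95.5 ± 5.95 CPM in overexpression and 95.6 ± 0.594 CPM in control cells (SD, n = 2 each). Mrpl43 had 52.6 and 48.3 CPM in overexpression libraries, against 50.4 and 49.5 CPM in control libraries (0.01 ± 0.06). Mrpl51 had 58.9 and 58.3 CPM in overexpression libraries, against 58.9 and 57.2 CPM in control libraries (0.01 ± 0.05). All 3 overlapped between the groups. In Mrpl43, 33.4% of the exonic bases overlap Twnk on the opposite strand (log2 fold change -0.67).

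Changes of small-subunit genes ran from -0.61 to 0.33, and the largest were again falls. Mrps2 (chromosome 2, 28468066 to 28471178, plus strand), a bacterial-type protein, had 20.0 and 18.9 CPM in overexpression libraries, against 30.9 and 29.4 CPM in control libraries (-0.61 ± 0.08, limma adjusted p = 9.8e-07). Mrps6 (chromosome 16, 92058270 to 92112227, plus strand), a platform protein in bacteria, had 40.0 and 42.7 CPM in overexpression libraries, against 55.9 and 57.6 CPM in control libraries (-0.45 ± 0.06, limma adjusted p = 8.7e-07). In both genes the lowest control library exceeded the highest overexpression library by far more than the libraries of a group differed. The exons of Mrps6 share 159 bases with the same-strand gene Slc5a3 (log2 fold change -0.06). Mrps35, a mitochondria-specific subunit, had 31.9 and 33.0 CPM in overexpression libraries, against 38.8 and 40.4 CPM in control libraries (-0.28 ± 0.07, limma adjusted p = 0.001). Mrps26, also mitochondria-specific, had 22.2 and 21.5 CPM in overexpression libraries, against 27.3 and 25.7 CPM in control libraries (-0.26 ± 0.08, limma adjusted p = 0.0071). The call of Mrps35 held without any 1 library, while that of Mrps26 was lost without control library 1 (adjusted p = 0.07). Mrps9, whose bacterial counterpart contacts the bound tRNA, had 45.7 and 44.5 CPM in overexpression libraries, against 51.1 and 48.7 CPM in control libraries (-0.14 ± 0.06, limma adjusted p = 0.039). That call was lost without control library 1 (0.24), overexpression library 1 (0.052) or overexpression library 2 (0.13), and also when the columns were scaled to the same total (0.12).

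Of the 6 small-subunit genes that rose, Mrps16 (chromosome 14, 20389304 to 20393634, minus strand), of bacterial type, changed most. It had 28.6 and 24.6 CPM in overexpression libraries, against 20.3 and 21.7 CPM in control libraries (0.33 ± 0.09, limma adjusted p = 0.0025), and its call was lost without overexpression library 1 (0.065). Mrps10, of bacterial type, had 51.1 and 50.8 CPM in overexpression libraries, against 43.8 and 40.1 CPM in control libraries (0.28 ± 0.06, limma adjusted p = 0.00052). Mrps30, a large-subunit protein despite its symbol, had 80.8 and 79.7 CPM in overexpression libraries, against 69.8 and 68.1 CPM in control libraries (0.22 ± 0.05, limma adjusted p = 0.00055). Mrps10 and Mrps30 were the 2 rises with a small-subunit symbol that held without any 1 library. Mrps31, which bacteria lack, had 25.0 and 24.3 CPM in overexpression libraries, against 19.1 and 22.8 CPM in control libraries (0.23 ± 0.09, limma adjusted p = 0.03). It was lost without control library 1 (0.4) or either overexpression library (0.1 and 0.056), and was 0.353 without control library 2. Mrps34 had 32.0 and 31.4 CPM in overexpression libraries, against 27.2 and 27.3 CPM in control libraries (0.21 ± 0.07, limma adjusted p = 0.015). Its call was lost without either control library (0.056 and 0.053) or overexpression library 1 (0.064), and 63.4% of its exonic bases overlap the opposite-strand gene Mapk8ip3 (log2 fold change 0.70) and 37.0% the same-strand gene Nme3 (0.34). Mrps33 rose by 0.18 ± 0.06 to 44.7 and 42.9 CPM in overexpression libraries, against 39.7 and 37.3 CPM in control libraries (limma adjusted p = 0.017), a call lost without control library 2 (0.15) or overexpression library 1 (0.096).

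**Figure D3:**
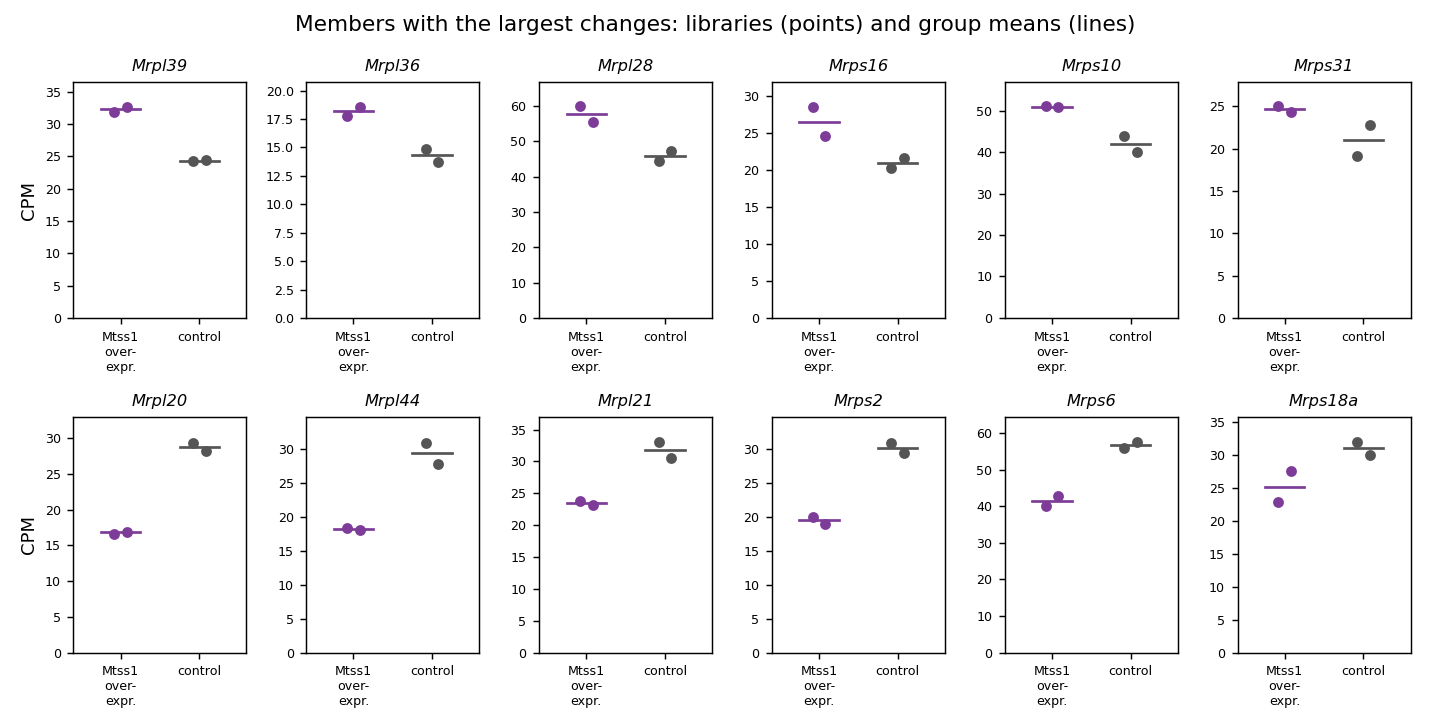
CPM of single libraries (points) and group means (lines) for the 3 called members with the largest rises (top) and falls (bottom) in each subunit, overexpression on the left and control on the right of each panel, with vertical axes from 0. Each panel has its own vertical scale. In CPM the widest gap is in Mrps6 (40.0 and 42.7 CPM in overexpression, 55.9 and 57.6 in control), and the narrowest is in Mrps31 (25.0 and 24.3 CPM in overexpression, 19.1 and 22.8 in control). As a ratio of group means, overexpression over control, Mrpl20 differs most (0.583, against 0.729 for Mrps6).

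The 3 paralogs of the bacterial small-subunit protein S18 take different places in the mammalian particle. Only Mrps18a passed, and whether the paralogs differ from each other in their change was not tested. Mrps18a, in the large subunit, had 22.9 and 27.6 CPM in overexpression libraries, against 32.1 and 30.1 CPM in control libraries (-0.30 ± 0.09, limma adjusted p = 0.0041). The groups did not overlap, but the overexpression libraries were far apart and the call was lost without overexpression library 1 (0.11). Mrps18b had 34.5 and 38.1 CPM in overexpression libraries, against 36.4 and 39.8 CPM in control libraries (-0.07 ± 0.07, limma adjusted p = 0.40). Mrps18c had 17.5 and 14.6 CPM in overexpression libraries, against 17.4 and 14.8 CPM in control libraries (limma adjusted p = 0.98). Both overlapped between the groups. The other smallest changes of the small subunit belonged to Mrps22, with 25.6 and 25.6 CPM in overexpression and 24.4 and 26.9 CPM in control libraries, and to Mrps25, with 48.7 and 46.7 CPM in overexpression and 43.6 and 53.3 CPM in control libraries. Mrps25 shares 69.8% of its exonic bases with Nr2c2 on the opposite strand (log2 fold change -0.47). Mrps21, among the most abundant small-subunit genes per kb, had 22.6 and 25.9 CPM in overexpression libraries, against 26.6 and 23.3 CPM in control libraries (-0.04 ± 0.09), with overlap.

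Genes for inherited and added subunits were counted apart, and the difference between them was not tested. Of 30 large-subunit genes with a bacterial homologue 9 rose and 10 fell, and of 19 without one 1 rose and 5 fell. In the small subunit, without Mrps18a, Mrps30 and Mrps36, 2 of 16 genes with a bacterial homologue rose and 3 fell, while 3 of 10 mitochondria-specific genes rose and 2 fell. Called genes made up 63.3% of the 30 and 31.6% of the 19 large-subunit genes, against 66.1% of all genes tested. In the small subunit they made up 31.2% of the 16 and 50.0% of the 10. No class thus had a larger called share than genes at large, of which 31.9% rose and 34.2% fell. The median log2 fold changes lay between -0.05 and 0.05 in all 4 classes.

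Mitoribosomal subunits whose symbols fall outside the naming pattern held the largest fitted change of any subunit, that of Ptcd3, close to that of Mrpl20 (-0.74 ± 0.08). The order of these 2 is uncertain. Mrpl20 was -0.775 with a pseudocount of 0.1 and -0.776 with limma-voom, and Ptcd3 ran from -0.8 to -0.74 over the settings. Ptcd3, a pentatricopeptide protein of the small subunit near the mRNA entry, had 66.7 and 68.8 CPM in overexpression libraries, against 118 and 115 CPM in control libraries (-0.78 ± 0.05, limma adjusted p = 1.6e-12). Aurkaip1, a small-subunit protein, had 46.1 and 44.2 CPM in overexpression libraries, against 52.2 and 54.5 CPM in control libraries (-0.24 ± 0.06, limma adjusted p = 0.0013). These 2 fell without overlap. Chchd1, also of the small subunit, had 27.1 and 29.6 CPM in overexpression libraries, against 23.3 and 23.3 CPM in control libraries (0.27 ± 0.08, limma adjusted p = 0.0051), a call lost without overexpression library 2 (0.064). Gadd45gip1, a large-subunit protein at the tunnel exit, had 56.9 and 53.4 CPM in overexpression libraries, against 50.2 and 49.7 CPM in control libraries (0.14 ± 0.06, limma adjusted p = 0.038), a call lost without control library 1 (0.092), control library 2 (0.13) or overexpression library 1 (0.24). Dap3, the GTP-binding protein of the small subunit, had 121 and 127 CPM in overexpression libraries, against 121 and 114 CPM in control libraries (0.08 ± 0.04, limma adjusted p = 0.13), and passed after scaling to the same column total (0.027).

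The factors that work with the particle covered a wider range of changes than its proteins, -1.47 to 0.58 among translation factors, where the lower end depends on the log scale used. Of 15 mitochondrial translation factors 3 rose (20.0%, against 31.9% of all genes), 5 fell (33.3%, against 34.2%) and 7 did not pass. Mtrf1, a release factor, had 1.32 and 1.67 CPM in overexpression libraries, against 5.83 and 5.94 CPM in control libraries (-1.47 ± 0.16, limma adjusted p = 5.1e-08), and its change ran from -1.96 with limma-voom to -0.75 with a pseudocount of 5. Lrpprc, which with Slirp protects mitochondrial mRNAs, had 43.7 and 48.6 CPM in overexpression libraries, against 115 and 109 CPM in control libraries (-1.26 ± 0.06, limma adjusted p = 6e-15). Both were far below control in each overexpression library, while Slirp overlapped (0.04 ± 0.09). The initiation factor gene Mtif2 had 34.0 and 36.1 CPM in overexpression libraries, against 47.3 and 46.1 CPM in control libraries (-0.40 ± 0.06). The recycling factor gene Gfm2 had 32.2 and 32.3 CPM in overexpression libraries, against 40.1 and 39.9 CPM in control libraries (-0.30 ± 0.07). These 2 fell, whereas another initiation factor gene and 2 genes for elongation factors rose. Mtif3, for initiation, had 17.9 and 19.3 CPM in overexpression libraries, against 13.8 and 10.6 CPM in control libraries (0.58 ± 0.11). Gfm1, for elongation, had 77.7 and 81.7 CPM in overexpression libraries, against 63.8 and 65.0 CPM in control libraries (0.30 ± 0.05). Guf1, the elongation factor 4 homologue, had 63.5 and 63.9 CPM in overexpression libraries, against 55.7 and 54.5 CPM in control libraries (0.21 ± 0.05). The groups overlapped in none of these 5 genes, and the limma adjusted p was 0.0018 at most. The fifth fall, that of the elongation factor gene Tsfm (-0.21 ± 0.09), lay at the threshold (limma adjusted p = 0.05). It was lost without control library 1 (0.3) or overexpression library 2 (0.34), with both other pseudocounts (0.051 and 0.054), without the filter (0.14) and with both other scalings (0.066 and 0.11). Of 26 genes for mitoribosome assembly and rRNA modification, 4 rose (15.4%, against 31.9% of all genes), 9 fell (34.6%, against 34.2%) and 13 did not pass. The 4 largest fitted falls lay close together, at -0.82 to -0.78, and had a limma adjusted p of at most 0.0017. The rRNA methyltransferase gene Mrm3 had 8.95 and 6.13 CPM in overexpression libraries, against 13.6 and 14.3 CPM in control libraries (-0.82 ± 0.14). Mettl17, an assembly factor of the small subunit, had 8.38 and 8.09 CPM in overexpression libraries, against 15.4 and 14.7 CPM in control libraries (-0.80 ± 0.11). Fastkd2, an assembly factor of the large subunit, had 10.1 and 10.6 CPM in overexpression libraries, against 19.0 and 18.1 CPM in control libraries (-0.78 ± 0.10). Their order depends on the log scale used, on which the weakly expressed endoribonuclease gene Ybey moves most. Ybey had 1.07 and 0.597 CPM in overexpression libraries, against 1.77 and 2.53 CPM in control libraries (-0.78 ± 0.20). Its change ran from -1.38 with limma-voom to -0.29 with a pseudocount of 5, and its call was lost without control library 2 (0.055). Malsu1, an assembly factor of the large subunit, had 31.7 and 33.0 CPM in overexpression libraries, against 21.9 and 22.0 CPM in control libraries (0.54 ± 0.08, limma adjusted p = 2.2e-06). The helicase gene Dhx30 had 118 and 114 CPM in overexpression libraries, against 84.8 and 90.7 CPM in control libraries (0.40 ± 0.05, limma adjusted p = 1.2e-07). Both rose without overlap. Rcc1l had 21.1 and 17.8 CPM in overexpression libraries, against 14.5 and 16.3 CPM in control libraries (0.31 ± 0.10, limma adjusted p = 0.011), a call lost without control library 1 (0.088) or overexpression library 1 (0.17). The pseudouridine synthase gene Rpusd4 had 24.1 and 25.1 CPM in overexpression libraries, against 20.7 and 21.4 CPM in control libraries (0.21 ± 0.08, limma adjusted p = 0.028), a call lost without control library 1 (0.12), control library 2 (0.056) or overexpression library 2 (0.12).

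RNAs encoded in the mitochondrial genome, rRNAs of the particle and the mRNAs it translates, moved in both directions. The small-subunit rRNA mt-Rnr1 had 220 and 240 CPM in overexpression libraries, against 102 and 94.7 CPM in control libraries (1.22 ± 0.05, limma adjusted p = 5.6e-16). The large-subunit rRNA mt-Rnr2 had 177 and 185 CPM in overexpression libraries, against 138 and 143 CPM in control libraries (0.36 ± 0.04, limma adjusted p = 6.6e-08). Both rRNAs rose, at levels near those of a single abundant mRNA, and the sources used here do not give how rRNA was depleted or mRNA selected. Of the 13 mRNAs translated by the mitoribosome 12 fell (92.3%, against 34.2% of all genes) and none rose, with a median of -1.03. Their summed level was 10504 and 11457 CPM in overexpression libraries, against 16118 and 15839 CPM in control libraries (ratio 0.687). In every library most of that sum was mt-Co1, the mRNA that did not pass. The ratio therefore shows a smaller fall than the median does. The 4 largest fitted falls had a limma adjusted p of 4.7e-05 or lower. The cytochrome b mRNA mt-Cytb had 187 and 233 CPM in overexpression libraries, against 1370 and 1330 CPM in control libraries (-2.69 ± 0.06). Of the complex I mRNAs, mt-Nd1 had 208 and 235 CPM in overexpression libraries, against 856 and 813 CPM in control libraries (-1.91 ± 0.04). The level of mt-Nd4 was 289 and 329 CPM in overexpression libraries, against 1080 and 1020 CPM in control libraries (-1.76 ± 0.04). The groups of these 3 lay far apart. For mt-Nd4l (-2.02 ± 0.37), which missed the threshold without the filter (0.067), the libraries of a group differed widely, at 3.2 and 19.4 CPM in overexpression libraries, against 29.8 and 44.6 CPM in control libraries. Its change was -0.88 without overexpression library 1 and -3.16 without overexpression library 2, so its rank among the mRNAs is uncertain. The exception, mt-Co1, had 7780 and 8370 CPM in overexpression libraries, against 8530 and 8510 CPM in control libraries (-0.08 ± 0.04, limma adjusted p = 0.093). It passed without control library 1 (0.02) or control library 2 (0.018) and with limma-voom (0.0047). Nuclear genes of related function gave other counts. Of 76 tested cytosolic ribosomal protein genes 47 rose (61.8%, against 31.9% of all genes) and 3 fell (3.95%, against 34.2%). Their median was 0.12 and the ratio of summed levels 1.09. Of 72 tested nuclear genes of the respiratory chain and ATP synthase 20 rose (27.8%) and 18 fell (25.0%), with a median of 0.02 and a ratio of 0.995. Whether these lists differ from the members was not tested.

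**Figure D4:**
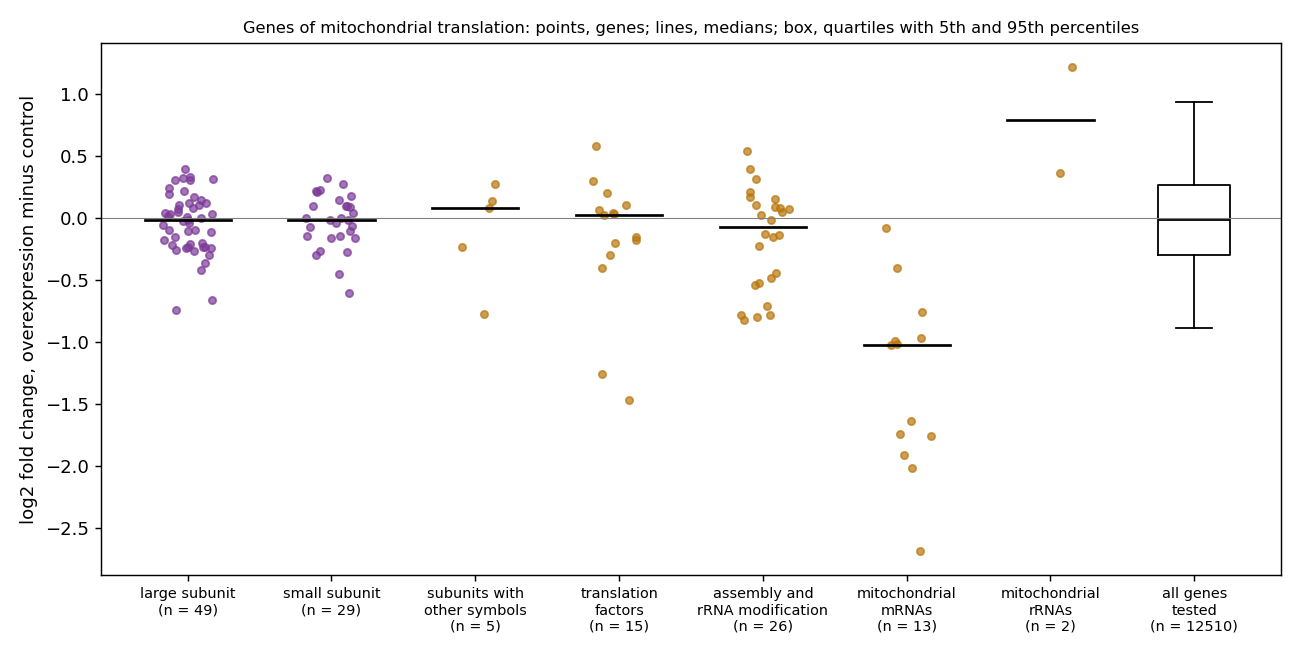
Log2 fold change (overexpression minus control, log2(CPM + 1) scale) of the genes of mitochondrial translation, with 1 point a gene and a line at each median, beside a box for all 12510 genes tested. The mitoribosomal proteins gather near 0 (medians -0.01 and -0.02), the mitochondrial mRNAs lie around -1.03, and the 2 mitochondrial rRNAs lie above 0.

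Members that start back to back with another gene could be compared with that neighbour. Pairs whose starts overlap far, such as Mrpl46 and Mrps11, were not counted. Of the 78, 23 had an opposite-strand, tested protein-coding gene starting within 1000 bases upstream or with a short overlap of the starts. The test called 10 of these members and 17 of the neighbours, where it called 37 of the 78 members and 66.1% of all genes. In 7 pairs both genes passed, 3 in the same and 4 in opposite directions, with a limma adjusted p of at most 0.0066 for each of those neighbours. Mrpl44 and Wdfy1, whose starts overlap, both fell (-0.66 and -0.33), as did Mrpl27 with the nuclease partner gene Eme1 (-0.22 and -0.48) and Mrpl37 with Cyb5rl (-0.21 and -1.18). In contrast Mrpl30 rose while Mitd1 fell (0.31 and -0.24), Mrps34 rose while Eme2 fell (0.21 and -1.15), and Mrpl2 and Mrpl50 fell while Klc4 (0.53) and Zfp189 (0.54) rose. Of the 7 members in these pairs, Mrpl44, Mrpl30 and Mrpl50 held their call without any 1 library. Mrpl37 lost its call without overexpression library 2 (adjusted p = 0.1), Mrpl27 without control library 1 (0.077) or overexpression library 2 (0.05), Mrpl2 without control library 2 (0.071), and Mrps34 without either control library (0.056 and 0.053) or overexpression library 1 (0.064). In M21, 24 members have exons that overlap those of another expressed gene, 7 of them over at least 25% of their exonic bases, and the sources used here do not give whether reads were counted by strand. The table also holds 5 pseudogene rows with Mrpl or Mrps symbols, none of which reached the filter or exceeded 0.634 CPM.

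Promoter motifs occurred in members that rose and in members that fell. RefSeq windows of 300 bases were at hand for 69 of the 78 members, 75 windows in all. The NRF1 letters occurred in 13 of these (17.3%, against 4.60% of 32851 windows of all genes), the ETS letters in 26 (34.7%, against 8.86%) and the YY1 letters in 12 (16.0%, against 2.75%). At least 1 of the 3 occurred in 57.3% of the windows of members, against 14.7% of all windows, and no 2 of the motifs overlapped in a member window. The windows of members were also richer in G and C, with a median of 58.7%, against 52.7% in all windows. NRF1 letters were found in 5 of 16 windows of members that rose (Mrpl14, Mrpl17, Mrpl30, Mrpl32 and Mrpl39), in 4 of 20 of members that fell (Mrpl12, Mrpl44, Mrps9 and Mrps26) and in 4 of 39 of members that did not pass. The ETS letters were found in 4 of the 16, 6 of the 20 and 16 of the 39 windows, and the YY1 letters in 2, 3 and 7 of them. These are matches of letters in short windows and describe no binding.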

How the data were processed

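Py8119 RNA was sequenced as paired ends (HiSeq PE150, per the labels' protocols). The submitters' processing notes name FastQC 0.11.2, STAR, RSEM and build mm10, without roles. The deposited values were CPM scaled by the authors by a rule that the sources used here do not give, with column sums from 982877 to 1016225. Values were steps of a hundredth of a read. Dividing by the fitted CPM of 1 read gave multiples of that step for 100% of nonzero values (within 0.001 read). It gave whole reads for 79.6% to 80.5% (within 0.005), so the recovered reads were treated as estimated, not raw, counts. The floor of 3 reads is 0.138 to 0.189 CPM.

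In R 4.3.3, limma 3.58.1 (lmFit, eBayes with a trended prior) was run on log2(CPM + 1) for the 12510 genes that reached 1 CPM in 2 or more libraries, overexpression against control, 2 libraries each, with Benjamini-Hochberg adjustment over all of them and a threshold of 0.05. There were 2 residual and 20 prior degrees of freedom. On this log2(CPM + 1) scale a pseudocount of 1 shrinks the fold changes of weakly expressed genes. With 2 libraries a group, groups fail to overlap often, so counts are read beside those over all genes. Positions and the lengths behind CPM per kb (longest principal transcript) come from GENCODE M21, which matched 50376 of the 50600 gene identifiers, and promoter windows from RefSeq (GRCm38.p6). Summaries used Python 3.11.15 and pandas 2.3.3. The fit was tested on simulated data with far fewer changed genes than were called here. There it made more false calls than the threshold allows for and missed most of the smallest changes. Because that setting differs from these data, the simulated rates cannot be carried over to the calls here. Calls of small changes near the threshold remain uncertain, since many were lost when 1 library was left out.

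The members and gene lists were chosen with earlier results of these data known. Members named with library values were, per subunit by symbol, the 7 largest called changes without overlap in each direction, the 3 highest levels per kb and the 3 smallest changes, with the Mrps18 paralogs, the subunits with other symbols and the 4 largest called changes in each direction of the other mitochondrial translation lists. Mrpl1, Mrpl2, Mrpl4, Mrpl9, Mrpl12, Mrpl17, Mrpl27, Mrpl32, Mrpl37, Mrpl48, Mrps11, Mrps17, Mrps36, Mtg2, Slirp, Tsfm and mt-Co1 were named outside this rule, after their values were seen, as were the neighbouring and overlapping genes. The alternatives were pseudocounts of 0.1 and 5, no filter, a filter of 1 CPM in every library, median-of-ratios scaling, equal column totals, the replicate number as a block, limma-voom on the recovered reads, an adjusted p under 0.01, subunits placed by structure, and each library left out.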

Additional observations from a re-analysis of the deposited data

How the results depend on the processing

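Of the 78 members, 37 were called under both other scalings, with a pseudocount of 5, with at least 1 CPM in all libraries and with the replicate block, 36 with a pseudocount of 0.1 and with limma-voom, 30 without a filter and 25 at an adjusted p under 0.01. Without a filter 22310 genes entered the adjustment, and Mrpl17 (adjusted p = 0.054), Mrpl32 (0.088), Mrpl33 (0.057), Mrpl46 (0.14), Mrps9 (0.062), Mrps18a (0.057), Mrps31 (0.12), Gadd45gip1 (0.07), Rcc1l (0.076) and Mtg2 (0.088) lost their calls. Mrpl46 was also lost with a pseudocount of 0.1 (0.053), with limma-voom (0.052), with median-of-ratios scaling (0.058) and with equal column totals (0.084), and Mrps9 with both of these scalings (0.056 and 0.12). Mrpl9 (0.046 and 0.018) and Mrps17 (0.042 and 0.02) passed with both scalings. At an adjusted p under 0.01, 10 members rose in all and 3 in the small subunit. With each library left out in turn, members called ran from 26 to 32 (higher 10 to 14, lower 13 to 19), large-subunit members called from 18 to 22 (higher 7 to 10, lower 9 to 14), small-subunit members called from 6 to 11 (higher 2 to 5, lower 4 to 7) and all genes called from 7173 to 7288. The same fits gave medians of -0.0488 to -0.00439 for the large and -0.0705 to 0.0597 for the small subunit, and a difference (large minus small) of -0.0729 to 0.0661. These fits leave 1 group with a single library, whose spread is assumed to be that of the other group. Scaling to the same column total moved the medians to 0.0215 for the large and 0.0212 for the small subunit, with 0.023 for all genes, so the sign of a median near 0 depends on the scaling. The split of calls moved with it, to 19 higher and 18 lower, against 16 higher and 21 lower as deposited. In all, 21 of the 37 calls were lost without at least 1 library, and 6 of the 41 other members passed without at least 1.

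Libraries with the same replicate number did not deviate together (correlation of deviations -0.0241), so the numbers are not taken to pair them. With the replicate block, 37 members (16 higher, 21 lower) and 8377 genes in all were called. Each member had at least 146 recovered reads in every library, but changes of low members were measured less precisely. Mrpl46, the member with the fewest reads, changed by -0.27 ± 0.12 (limma adjusted p = 0.049). Mrpl13, with at least 1246 reads in every library, changed by -0.23 ± 0.05 (limma adjusted p = 0.00036).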
